A study of Homo sapiens with 18 samples.

Results

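*MYCN* is the oncogene whose amplification defines an aggressive class of neuroblastoma, and *DDX1* and *NBAS* are the nearest protein-coding genes on its left side in the chromosome 2 annotation. Together with *MYC*, *MYCL*, *MAX*, *MXI1*, *MXD4*, *MNT* and *MGA* they make up the 10 genes described here, chosen by symbol from the 57905 Ensembl genes of the count files. All 10 passed the filter on low counts in every comparison. They were measured in BE(2)-m17, a human neuroblastoma cell line. Every group carried a hygromycin-selected vector with codon-optimized human *APP*. The Puro cells carried in addition an empty puromycin-resistance vector, and the ABCC1(WT) cells the same vector with codon-optimized *ABCC1*, which encodes an export pump. Both kinds of vector are Sleeping Beauty transposons, and each line is a drug-selected population made from 1 *APP*-overexpressing line, so that within an experiment the transgene and the line cannot be told apart. Cells were plated at 14000000 per well and lysed on day 4. There were 3 experiments of 6 libraries, 3 of each line, 18 libraries in all. The experiments are called the first, the second and the third, as the labels number them. By the methods of the study 1 of the repeats used cryopreserved cells and the other newly transfected cells, and the labels do not say which.

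The Ensembl genes took 8829522 to 57174128 counts per library. By the methods of the study the first experiment used a kit for polyadenylated RNA and the others a kit for total RNA, so levels are set side by side across experiments and tested only within them. The *ABCC1* vector sequence had 51035 to 594404 counts in the ABCC1(WT) libraries and 0 to 15 in the Puro libraries, in keeping with every line label. Olfactory receptor genes, 356 protein-coding genes that nerve cells outside the nose do not use, served as a gauge of background reads. They had 0.00376 to 0.00550 counts scaled by library size (CPM) per kilobase of exon in the first experiment, 0.140 to 0.669 in the second and 1.16 to 1.66 in the third. The mean was lower in the ABCC1-overexpressing cells each time, and ABCC1(WT) replicate 1 of the second experiment had the lowest value of the repeats.

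MYC proteins (MYC, MYCN and MYCL) are transcription factors that bind E-box sequences only as a pair with MAX, and they raise transcription of genes for ribosome assembly, metabolism and growth. MXI1, MXD4, MNT and MGA also pair with MAX, compete for the same sites and repress, the MXD proteins and MNT by recruiting SIN3 co-repressors and MGA as the scaffold of a Polycomb complex. A high MYCN level in neuroblastoma holds cells in an undifferentiated, dividing state, and *MYC* is usually low where *MYCN* is amplified. *DDX1*, an RNA helicase gene, and *NBAS*, which encodes a protein of Golgi-to-ER transport, are sometimes amplified together with *MYCN*.

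*MYCN* stood far above all other members in every library. On the scale of CPM per kilobase, where genes can be compared, it had 1110.1 ± 54.5 in the Puro cells of the first experiment (SD, n = 3) and ranked 5 to 15 among 19263 protein-coding genes across the 6 groups. *DDX1* came next with a level of 42.3 ± 0.466, followed by *MAX* with 22.99 ± 0.540. *MXI1* with 13.9 ± 0.156, *MGA* with 12.97 ± 0.397 and *NBAS* with 11.04 ± 0.162 lay close together, but the ranges of their 3 libraries did not overlap. The lower end held *MXD4* with 4.45 ± 0.251, *MNT* with 2.82 ± 0.213, *MYCL* with 1.77 ± 0.0539 and *MYC* with 0.530 ± 0.0614. The other MYC family members were thus near the bottom of the order in a line with very high *MYCN*.

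In the Puro cells of the second experiment the order was *MYCN* with 1422 ± 101 CPM per kilobase, *DDX1* with 36.6 ± 8.35, *NBAS* with 9.88 ± 1.78, *MGA* with 9.65 ± 0.949, *MAX* with 6.94 ± 0.680, *MXI1* with 6.59 ± 1.6, *MXD4* with 4.55 ± 0.603, *MNT* with 2.03 ± 0.150, *MYCL* with 0.817 ± 0.0672 and *MYC* with 0.416 ± 0.201. The values of *NBAS* and *MGA*, and those of *MAX* and *MXI1*, differed by less than their spread. In those of the third experiment *MYCN* had 1774 ± 333, *DDX1* 22.6 ± 4.0, *NBAS* 11.7 ± 1.5, *MGA* 10.4 ± 0.510, *MAX* 9.96 ± 1.62 and *MXI1* 8.09 ± 1.78 CPM per kilobase. The neighbours from *NBAS* to *MXI1* overlapped in range, as did *MXD4* (3.98 ± 0.811) with *MNT* (3.04 ± 0.577) and *MNT* with *MYCL* (2.28 ± 0.534). *MYC* (1.597 ± 0.418) overlapped *MYCL*.

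**Figure D1:**
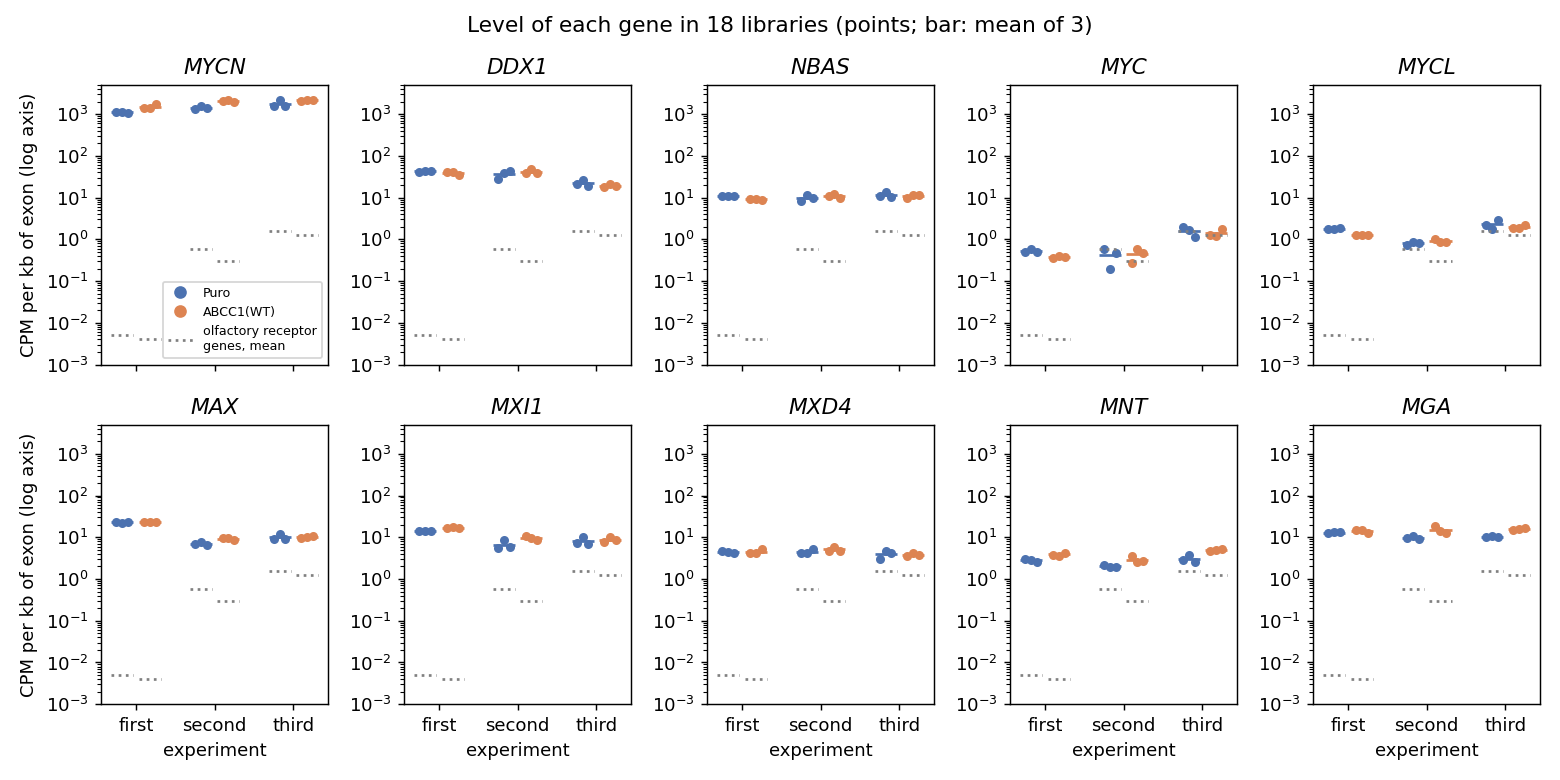
Level of each gene in CPM per kilobase of exon (log axis) in the 18 libraries, by experiment; points are libraries, bars the mean of 3, blue the empty vector (Puro) and orange the ABCC1-overexpressing cells, and the dotted lines the mean of the olfactory receptor genes. The lowest *MYCN* level is 1047, and *MYC* lies near the dotted lines in the second and the third experiments.

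*MYCN* (ENSG00000134323, GRCh37 chromosome 2, 16080686 to 16087129, plus strand) was higher in the ABCC1-overexpressing cells. In the first experiment its level was 1141, 1142 and 1047 CPM per kilobase in the Puro libraries and 1389, 1406 and 1755 in the ABCC1(WT) libraries. In these bulk samples more cells with a transcript and more RNA per cell cannot be told apart. Every ABCC1-overexpressing library was above every empty vector library, and the log2 fold change was 0.45 ± 0.09 (SE, edgeR quasi-likelihood test, adjusted p = 0.00257, range over alternatives 7.49e-07 to 0.16). The call was lost with background reads as a covariate and with the spread shared across the 18 libraries. Of all genes tested in that comparison, 17.9% were called higher and 19.7% lower at an adjusted p of at most 0.05.

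In the second experiment *MYCN* had 1333, 1532 and 1399.9 CPM per kilobase in the Puro libraries and 2039, 2134 and 1936 in the ABCC1(WT) libraries. The groups again did not overlap, but the log2 fold change of 0.52 ± 0.21 did not pass (edgeR, adjusted p = 0.159), in a comparison that called 1.25% of genes higher and 0.458% lower. The third experiment gave 1579, 2158 and 1584 for the empty vector and 2061.5, 2185 and 2169 for ABCC1-overexpressing cells, with a log2 fold change of 0.27 ± 0.26 (adjusted p = 0.683), beside 2.03% of genes called higher and 0.767% lower. Here Puro replicate 2 lay within the range of the ABCC1(WT) libraries. The effect common to the experiments, fitted over all 18 libraries with the experiment as a term, was 0.47 ± 0.11 (edgeR, adjusted p = 0.00217, and 0.30 with at least 10 counts in every library), where 9.69% of genes were called higher and 4.4% lower. The median log2 fold change over all genes in that fit was -0.14, with -0.23 under RLE size factors and -0.29 in DESeq2, so the values here are to be read against that median. Over the genes with at least 10 counts in every library it was -0.03. The calls over all genes, 4036 higher and 1833 lower, became 2901 and 2922 with RLE size factors and 3397 and 3919 with DESeq2.

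*DDX1* (ENSG00000079785, 15731302 to 15771235, plus strand) starts at -349.4 kb from the *MYCN* start, and did not pass in any comparison. Its level was 41.8, 42.3 and 42.8 CPM per kilobase in the Puro libraries of the first experiment and 40.9, 41.5 and 35.1 in the ABCC1(WT) libraries. The latter were all lower, by a log2 fold change of -0.11 ± 0.06 (edgeR, adjusted p = 0.162). In the second experiment the levels were 27.6, 38.3 and 44.0 against 37.9, 48.0 and 39.3, and in the third 21.1, 27.1 and 19.5 against 17.96, 21.4 and 19.1. Both pairs of groups overlapped, with log2 fold changes of 0.19 ± 0.19 and -0.21 ± 0.17 (edgeR, adjusted p = 0.574 and 0.61), and the common value was 0.01 ± 0.10 (adjusted p = 0.942).

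*NBAS* (ENSG00000151779, 15307032 to 15701454, minus strand) starts at -773.7 kb from the *MYCN* start in the coordinates. It fell in the first experiment, from 10.9, 11.1 and 11.2 CPM per kilobase in the Puro libraries to 9.48, 9.45 and 8.65 with ABCC1. The groups did not overlap, and the log2 fold change was -0.26 ± 0.05 (edgeR, adjusted p = 0.00126). The second experiment gave 8.20, 11.8 and 9.68 against 11.2, 12.1 and 9.54, and the third 11.1, 13.4 and 10.6 against 9.81, 11.8 and 11.3. These groups overlapped, with log2 fold changes of 0.15 ± 0.18 and -0.09 ± 0.18 (edgeR, adjusted p = 0.642 and 0.856).

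The ratio of *MYCN* to its neighbours within a library does not depend on the scaling. The ratio of *MYCN* to *NBAS*, both per kilobase, was 93.8 to 105 in the Puro libraries of the first experiment and 146 to 203 in the ABCC1(WT) libraries. It was 130 to 163 against 176 to 203 in the second experiment, and 142 to 161 against 184 to 210 in the third. Thus the groups did not overlap in any of the 3 experiments, and the ratio was 1.63-, 1.29- and 1.297-fold higher with ABCC1. Each comparison has an exact permutation p of 0.1 (two-sided), the smallest that 3 against 3 libraries allow. The ratio of *MYCN* to *DDX1* was 1.47-fold higher in the first experiment and 1.40-fold in the third, without overlap (exact permutation p = 0.1 each), and 1.24-fold in the second, where the groups overlapped (exact permutation p = 0.2). In the third experiment *MYCN* was 74.7 to 81.3 times *DDX1* in Puro and 102 to 115 times in ABCC1-overexpressing cells.

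Distances here run between the lowest coordinates of genes, whatever their strand. The noncoding genes to the right of *MYCN* carried many counts in the second and the third experiments. All 11 noncoding genes that start 10.1 to 454.8 kb past the *MYCN* start were over 20 times the olfactory receptor level in all 12 libraries of these experiments, against 0.58% of 33075 noncoding genes in the whole annotation. The borders of this stretch and the limit of 20 times were set after the levels were seen. The count inside was fixed by that choice, so it is a description and not a test. The long noncoding RNA gene *GACAT3*, 109.9 kb past the *MYCN* start, was itself the median gene of the stretch there and had a mean level of 190.0 CPM per kilobase in Puro and 103 in the ABCC1(WT) cells of the second experiment, and 476 and 382 in the third. Its first-experiment means were 4.79 and 3.04. *RN7SL104P*, a copy of a signal-recognition RNA gene 10.1 kb past the *MYCN* start, had 0.135 and 0.270 in the first experiment and 272 and 231 in the third.

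None of the 14 genes not annotated as protein-coding before the *MYCN* antisense gene within 2 Mb, and none of the 7 more than 454.8 kb past the *MYCN* start, met the same limit. These counts too follow from where the borders were drawn. *MYCNUT*, 20.2 kb before the *MYCN* start, was at 1.57 to 3.69 times the olfactory receptor level in the 12 libraries, and *LINC01804*, 249.8 kb before it, at 0.491 to 2.06 times. *DDX1* and *NBAS* lie outside the stretch. Of the protein-coding genes further off that reached 1 CPM, *CYRIA* (650.04 kb past the start) was at 1.304 to 4.16 times the olfactory receptor level, and *SMC6* and *GEN1*, genes of DNA repair, at 4.82 to 141 and 3.77 to 49.4 times. *LRATD1*, *RAD51AP2*, *VSNL1*, *MSGN1* and *KCNS3* had median multiples of 0.866 to 3.08. The noncoding *LINC00276*, *RN7SKP168*, *ZFYVE9P2* and *PSMC1P10* had medians of 0.850 to 2.61 and *LINC01866* one of 8.53. In the first experiment *SMC6* fell by 0.37 on the log2 scale (edgeR, adjusted p = 0.00114), *GEN1* by 0.41 (1.87e-04) and *KCNS3*, a potassium channel gene, by 1.74 (1.80e-04). *LRATD1* was also called lower there, with a log2 fold change of -0.32 (edgeR, adjusted p = 0.0295). Of all genes 19.7% were called lower in that comparison.

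**Figure D2:**
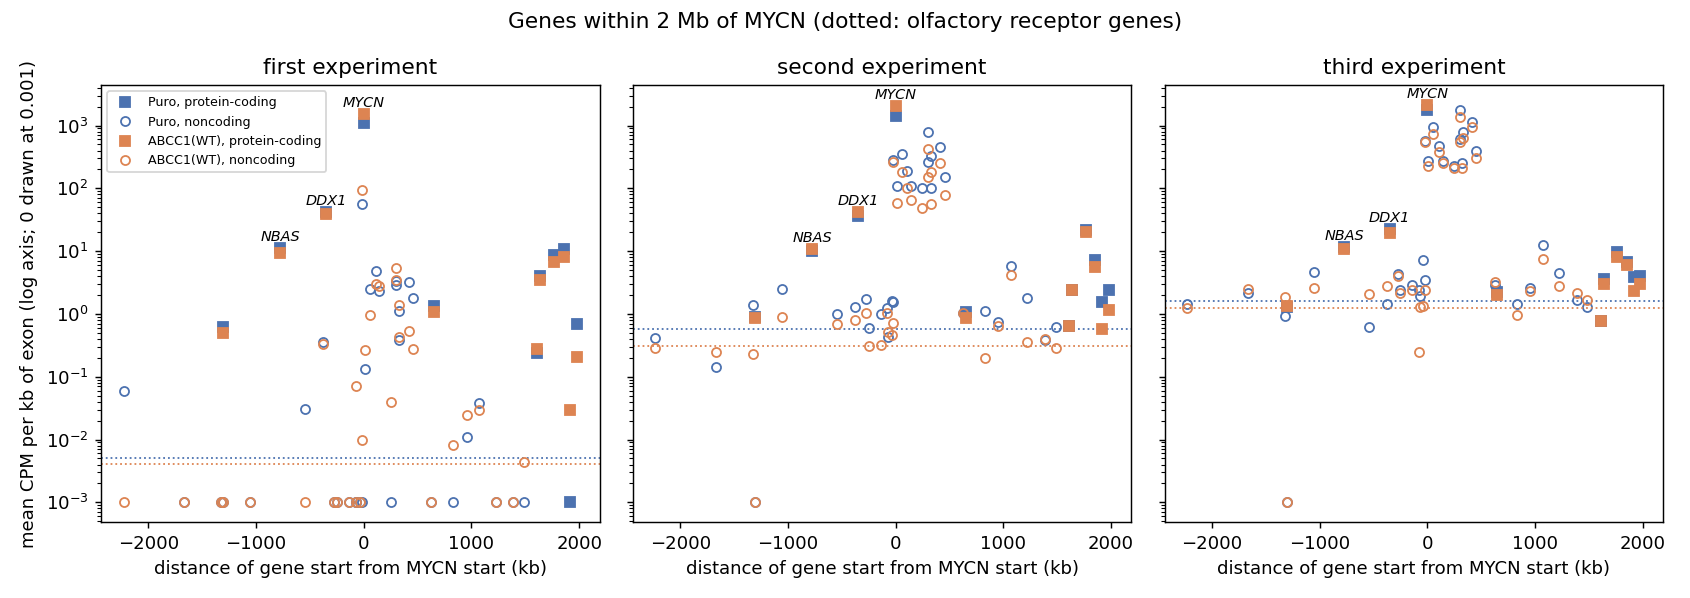
Mean level in CPM per kilobase of exon (log axis, a level of 0 drawn at 0.001) of each gene within 2 Mb of *MYCN*, against the distance of its start from the *MYCN* start in kb, for the 3 experiments; squares are protein-coding and circles noncoding genes, blue the empty vector and orange the ABCC1-overexpressing cells, and dotted lines the olfactory receptor genes. In the second and the third experiments the 11 noncoding genes 10.1 to 454.8 kb to the right of *MYCN* form a group of high levels (lowest mean 49.4), while most of those farther away lie closer to the dotted lines.

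The level of this stretch moved with the olfactory receptor level. The median of the 11 genes was 208, 185 and 177 CPM per kilobase in the Puro libraries of the second experiment and 52.2, 122 and 135 in the ABCC1(WT) libraries. In the third experiment it was 496, 430.5 and 502 against 434, 373 and 339. Divided by the olfactory receptor level of the same library it came to 289 to 378 times in all 12 libraries, although the olfactory level itself ran from 0.140 to 1.66. In the first experiment, where both were low, the ratio was 418 to 498 in Puro and 141 to 399.5 in the ABCC1(WT) libraries. The 18 points share the library in both measures, and the source of these reads was not tested.

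**Figure D3:**
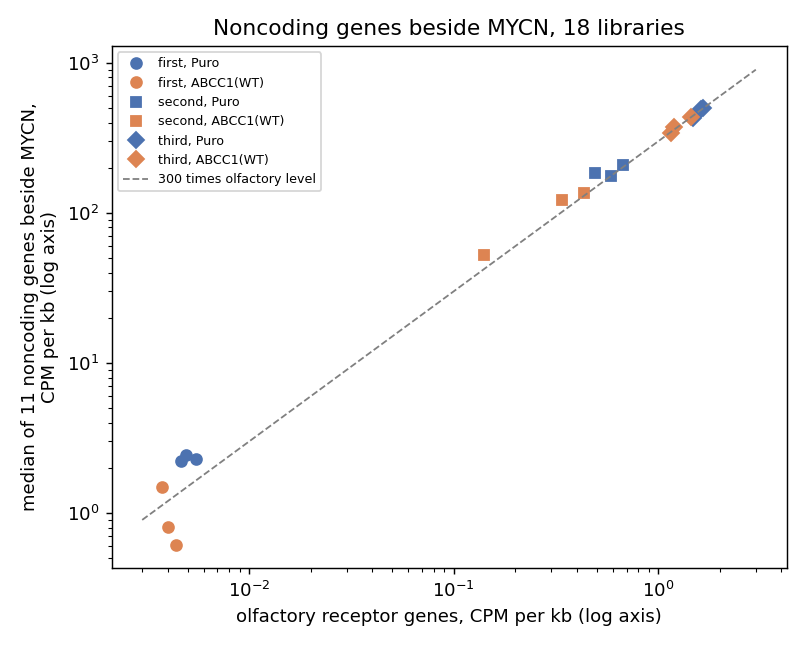
Median level of the 11 noncoding genes beside *MYCN* against the level of the olfactory receptor genes, both in CPM per kilobase on log axes, one point per library, with circles, squares and diamonds for the first, the second and the third experiment, and blue for the empty vector and orange for ABCC1-overexpressing cells. The dashed line is 300 times the olfactory level, and the 12 libraries of the second and the third experiments lie at 289 to 378 times.

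Set against *MYCN* itself, the median of the 11 genes came to 12.05 to 15.6% of the *MYCN* level per kilobase in the Puro libraries of the second experiment and 2.56 to 6.96% in the ABCC1(WT) libraries. It was 19.95 to 31.7% and 15.6 to 21.0% in the third, and at most 0.215% in the first. The median of the 11 genes was on average lower with ABCC1 in each experiment while *MYCN* was higher, but in the third both overlapped between the lines. A higher *MYCN* level also lowers the share by itself. With this median taken off the *MYCN* level, an alternative chosen after seeing the data and given with no test, the log2 fold change was 0.45, 0.65 and 0.44 in the 3 experiments. The antisense gene *MYCNOS* has its lowest coordinate 19.5 kb before that of *MYCN* and shares 98 bp of exon with it. Its level was 56.0 in Puro and 95.5 in the ABCC1(WT) cells of the first experiment, where it rose by a log2 fold change of 0.77 (edgeR, adjusted p = 4.79e-05). It was 286 and 259 in the second experiment and 572 and 542 in the third, with log2 fold changes of -0.14 and -0.08 (adjusted p = 0.691 and 0.913). The counting did not use strand, and reads over exons of both genes were not counted.

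*MYC* (ENSG00000136997, chromosome 8, 128747680 to 128753674, plus strand), the founding member of the family, had few reads. It had 64, 49 and 47 counts in the Puro libraries of the first experiment and 61, 38 and 67 in the ABCC1(WT) libraries. In CPM per kilobase the levels were 0.491, 0.601 and 0.498 against 0.360, 0.393 and 0.386, so the groups did not overlap and the log2 fold change was -0.47 ± 0.16 (edgeR, adjusted p = 0.0345). The call was lost without any of the Puro libraries and without ABCC1(WT) replicate 1 or 2, with adjusted p of 0.0421 to 0.106 over the 6 omissions. It was also lost with DESeq2 (adjusted p = 0.202), no filter on low counts, the replicate block, the background covariate and the shared spread, with adjusted p of up to 0.848. In the second and the third experiments *MYC* had 17 to 65 counts and was at 0.389 to 1.91 and 0.692 to 1.52 times the olfactory receptor level, which is the background of these libraries, so its expression was not detectable above it. The log2 fold changes there were 0.10 ± 0.58 and -0.18 ± 0.31 (edgeR, adjusted p = 0.938 and 0.845). The *MYCN* level was 1901 to 2323 times that of *MYC* in the Puro cells of the first experiment and 3575 to 4551 times with ABCC1.

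*MYCL* (ENSG00000116990, chromosome 1, 40361098 to 40367928, minus strand), the family member first found in small cell lung cancer, also fell in the first experiment. Its level was 1.74, 1.74 and 1.83 CPM per kilobase in the Puro libraries and 1.26, 1.29 and 1.27 in the ABCC1(WT) libraries, a log2 fold change of -0.48 ± 0.07 (edgeR, adjusted p = 5.7e-04). These groups were far apart. In the second experiment the levels were 0.742, 0.872 and 0.837 against 1.01, 0.868 and 0.879, and in the third 2.17, 1.81 and 2.86 against 1.82, 1.92 and 2.26. Both overlapped, with log2 fold changes of 0.17 ± 0.31 and -0.18 ± 0.21 (edgeR, adjusted p = 0.777 and 0.741). There the olfactory receptor level was 33.1 to 71.3% of that of *MYCL*. The part of background reads in these values was not tested.

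*MAX* (ENSG00000125952, chromosome 14, 65472892 to 65569413, minus strand), the shared partner of the network, did not pass in the first experiment, with 23.6, 22.5 and 22.9 CPM per kilobase against 23.5, 22.7 and 23.6 and a log2 fold change of 0.02 ± 0.04 (edgeR, adjusted p = 0.745). In the second experiment the levels were 6.78, 7.68 and 6.35 against 9.75, 9.48 and 8.36. The groups did not overlap, but the log2 fold change of 0.41 ± 0.15 did not pass (adjusted p = 0.141). The third gave 9.06, 11.8 and 8.99 against 9.72, 10.4 and 10.9, an overlap, with 0.05 ± 0.16 (adjusted p = 0.919). The common value of 0.22 ± 0.09 had an adjusted p of 0.0881 (edgeR). *MYCN* was 45.7 to 50.8 times *MAX* per kilobase in the Puro cells of the first experiment and 59.0 to 74.4 times with ABCC1. This ratio was 1.34-fold higher with ABCC1 in the first experiment, 1.08-fold in the second, where the groups overlapped, and 1.17-fold in the third (exact permutation p = 0.1, 0.2 and 0.1).

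*MXI1* (ENSG00000119950, chromosome 10, 111967363 to 112047123, plus strand), an MXD family repressor, rose in the first experiment. It had 13.8, 14.1 and 13.9 CPM per kilobase in the Puro libraries and 17.1, 17.2 and 16.3 with ABCC1, and the log2 fold change was 0.27 ± 0.04 (edgeR, adjusted p = 5.55e-04). The levels of the second experiment were 5.41, 8.41 and 5.94 against 10.6, 9.34 and 8.80, and those of the third 7.17, 10.1 and 6.97 against 7.88, 10.0 and 8.47. The groups stood apart in the second (log2 fold change 0.54 ± 0.17, adjusted p = 0.0912) and overlapped in the third (0.12 ± 0.16, adjusted p = 0.792). The common effect of 0.37 ± 0.10 passed (edgeR, adjusted p = 0.00523), and was 0.20 with at least 10 counts in every library.

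*MXD4* (ENSG00000123933, chromosome 4, 2249159 to 2264021, minus strand), a repressor of the same family, did not pass in any comparison, and its groups overlapped in all 3 experiments. It had 4.26 to 4.73 CPM per kilobase in Puro and 4.09 to 5.19 in the ABCC1(WT) libraries of the first experiment, 4.15 to 5.25 and 4.72 to 5.83 in the second, and 3.06 to 4.59 and 3.56 to 4.10 in the third. The log2 fold changes were 0.02 ± 0.09, 0.17 ± 0.16 and -0.07 ± 0.17 (edgeR, adjusted p = 0.868, 0.548 and 0.888).

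*MNT* (ENSG00000070444, chromosome 17, 2287354 to 2304412, minus strand) encodes a MAX partner that represses broadly in dividing and resting cells, and was higher with ABCC1 in all 9 libraries against their own experiment. The levels of the first experiment were 3.03, 2.81 and 2.61 CPM per kilobase in the Puro libraries and 3.70, 3.64 and 4.29 in the ABCC1(WT) libraries, a log2 fold change of 0.46 ± 0.08 (edgeR, adjusted p = 0.00103). In the second experiment they were 2.20, 1.97 and 1.93 against 3.47, 2.62 and 2.65, with 0.52 ± 0.16 (adjusted p = 0.0887). In the third they were 2.93, 3.66 and 2.52 against 4.76, 4.94 and 5.32, with 0.72 ± 0.16 (adjusted p = 0.00327). The groups did not overlap in any experiment. Without Puro replicate 3 the third experiment no longer passed (edgeR, adjusted p = 0.079, range over the other omissions and settings 3.84e-05 to 0.199). The common effect of 0.62 ± 0.09 was the largest among the 10 genes (adjusted p = 2.76e-06).

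The olfactory receptor level was 52.4% of the *MNT* level in the Puro cells of the third experiment and 25.2% in the ABCC1-overexpressing cells. The first gave 0.179% and 0.104%. *MNT* shares 1065 of its 8728 bp of exon with an antisense gene known by its Ensembl ID only, which strand-blind counting does not assign to either gene. The ratio of *MNT* to *MXD4* was 0.612 to 0.646 in the Puro libraries of the first experiment and 0.828 to 0.905 with ABCC1, and 0.588 to 0.959 and 1.205 to 1.44 in the third. The groups did not overlap in these (exact permutation p = 0.1 each) but did in the second experiment (exact permutation p = 0.3).

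*MGA* (ENSG00000174197, chromosome 15, 41913422 to 42062141, plus strand), a large scaffold that pairs with MAX, was higher in the second and the third experiments, where neither value passed alone. Its level was 9.43, 10.7 and 8.84 CPM per kilobase in the Puro libraries of the second experiment and 18.4, 13.8 and 12.8 with ABCC1, a log2 fold change of 0.64 ± 0.18 (edgeR, adjusted p = 0.0685). The third experiment gave 10.2, 11.002 and 10.1 against 15.3, 15.4 and 16.9, with 0.60 ± 0.19 (adjusted p = 0.0561). In both the groups stood apart. In the first experiment they overlapped, with 12.5, 13.2 and 13.2 against 14.6, 14.5 and 12.6 and a log2 fold change of 0.10 ± 0.06 (adjusted p = 0.194). The common effect of 0.51 ± 0.10 passed (edgeR, adjusted p = 1.65e-04), and was 0.32 with at least 10 counts in every library.

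**Figure D4:**
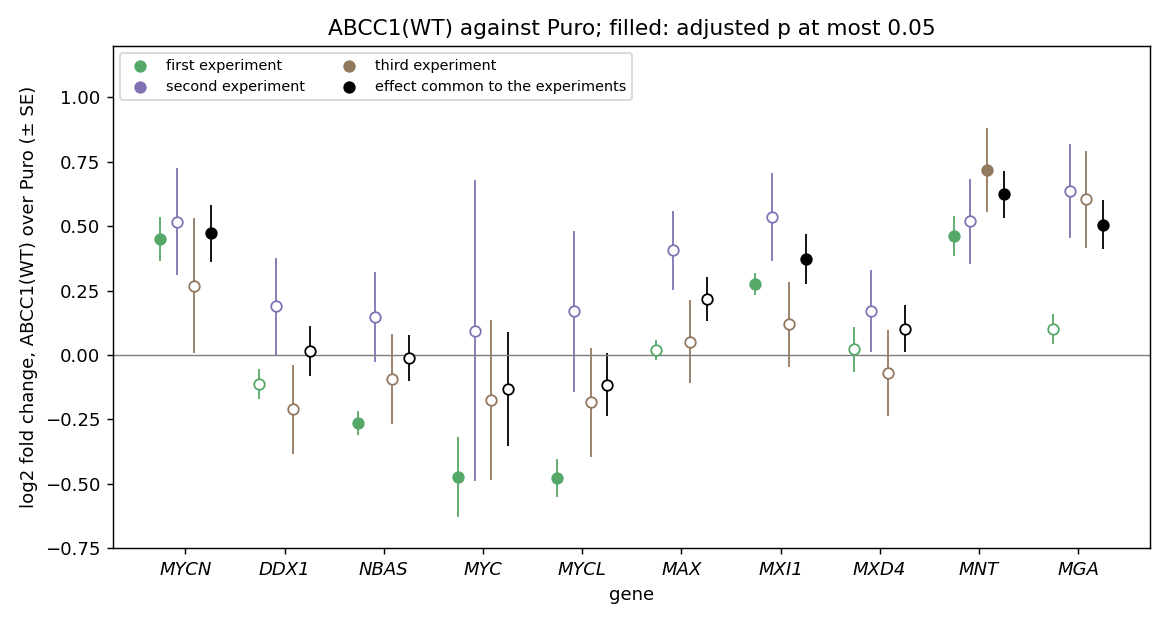
Log2 fold change of the ABCC1-overexpressing over the empty vector cells with its SE for the 10 genes, in the first (green), the second (purple) and the third (brown) experiment and for the effect common to them (black); filled points have an adjusted p of at most 0.05 in edgeR. *MYCN*, *MXI1*, *MNT* and *MGA* are filled for the common effect, with values of 0.37 to 0.62, and no gene is filled for the second experiment.

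Counted over the 10 genes, 6 were called in the first experiment, with *MYCN*, *MXI1* and *MNT* higher and *NBAS*, *MYC* and *MYCL* lower. The shares of 30.0% in each direction stand beside the 17.9% and 19.7% of all genes given above. The count of 6 became 0 with background reads as a covariate and 1 with the spread shared across the 18 libraries. The second experiment called 0 by edgeR, 5 at an unadjusted p under 0.05, and 5 by DESeq2. The third called *MNT*. The common effect called 4 of 10, all higher, 40.0% beside 9.69% of all genes and 19.7% of 18472 protein-coding genes (6.76% of which were lower). The libraries of the 2 lines did not overlap for 3 genes higher and 4 lower in the first experiment (24.7% and 25.7% of all genes), for 5 higher and 0 lower in the second (13.5% and 16.4%), and for 2 higher and 0 lower in the third (8.59% and 10.9%).

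A call in some experiments and not in others does not show that the effect differed. The test of a difference between experiments called 0 of the 10 genes (edgeR, 0 at an unadjusted p under 0.05, 0 by DESeq2), against 1.3% of all genes. Its smallest unadjusted p was 0.0576, for *MGA* (adjusted p = 0.544), whose effect was 0.46 ± 0.22 larger in the second and 0.48 ± 0.22 larger in the third experiment than in the first on the log2 scale. Taken as pairs, these had unadjusted p of 0.041 and 0.035 (edgeR, adjusted p = 0.536 and 0.62). The *MYCL* effect was 0.57 ± 0.27 larger in the second experiment than in the first (edgeR, unadjusted p = 0.042, adjusted p = 0.538). For *MYCN* the third minus the first came to -0.21 ± 0.27.

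Promoter windows from RefSeq (GRCh38.p14) were at hand for 9 of the 10 genes, 14 windows in all, with the 250 bases before each start searched on both strands. The E-box that MYC and MNT complexes bind with MAX was searched as CACGTG, which reads the same on both strands. Sites of the E2F type, through which E2F factors and the MGA-linked E2F6 act, were searched as TTTGGCGC and TTTCGCGC with their reverse forms GCGCCAAA and GCGCGAAA. Of 35116 windows, 6.34% held the E-box and 0.968% an E2F-type match. The 4 windows with a match are shown 5′ to 3′ on the strand of the gene with the match in capitals: the windows of *MYCN* and *MGA*, which were called higher and hold an E2F-type match, that of *MNT*, which was called higher and holds an E-box, and that of *MXD4*, which was not called and also holds one.
MYCN, chr2:15940300-15940549, plus strand: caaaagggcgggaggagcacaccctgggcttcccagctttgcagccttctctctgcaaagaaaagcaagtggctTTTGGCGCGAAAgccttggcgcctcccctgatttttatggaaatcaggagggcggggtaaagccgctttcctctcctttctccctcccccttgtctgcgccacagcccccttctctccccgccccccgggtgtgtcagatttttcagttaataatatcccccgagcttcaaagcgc
MGA, chr15:41660497-41660746, plus strand: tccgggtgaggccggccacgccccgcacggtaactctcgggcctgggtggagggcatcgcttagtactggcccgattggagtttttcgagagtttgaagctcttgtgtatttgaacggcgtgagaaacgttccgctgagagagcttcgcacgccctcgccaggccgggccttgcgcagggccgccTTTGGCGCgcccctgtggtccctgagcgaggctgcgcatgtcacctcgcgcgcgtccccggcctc
MNT, chr17:2401061-2401310, minus strand: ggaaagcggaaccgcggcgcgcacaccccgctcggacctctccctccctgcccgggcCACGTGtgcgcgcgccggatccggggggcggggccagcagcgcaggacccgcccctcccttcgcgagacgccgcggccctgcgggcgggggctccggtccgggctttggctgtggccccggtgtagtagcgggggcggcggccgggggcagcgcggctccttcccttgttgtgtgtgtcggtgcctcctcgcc
MXD4, chr4:2262110-2262359, minus strand: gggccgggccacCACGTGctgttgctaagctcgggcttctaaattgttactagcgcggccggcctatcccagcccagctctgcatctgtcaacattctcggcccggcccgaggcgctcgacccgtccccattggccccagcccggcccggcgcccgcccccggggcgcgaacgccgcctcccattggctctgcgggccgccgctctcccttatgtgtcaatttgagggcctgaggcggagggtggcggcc
In *MYCN* the capitals hold an overlapping pair, TTTGGCGC and GCGCGAAA, 176 and 172 bases before the start. The *MGA* match lies 65 bases before the third of its 3 annotated starts, and the E-boxes of *MNT* and *MXD4* lie 193 and 238 bases before theirs. The windows of *DDX1*, *NBAS*, *MYCL*, *MAX* and *MXI1* held neither set of letters.

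The network has 5 further members, and all 5 were called in the common effect, 2 higher and 3 lower, beside 9.69% and 4.4% of all genes. *MLXIP* and *MLX*, a glucose-sensing factor and its partner, were higher with log2 fold changes of 0.49 ± 0.10 and 0.33 ± 0.09 (edgeR, adjusted p = 6.34e-04 and 0.00606). *MXD1* and *MXD3*, MXD repressors like *MXI1*, were lower by -0.78 ± 0.10 and -0.37 ± 0.10 (adjusted p = 4.35e-07 and 0.00836), and *MLXIPL*, the liver-type glucose sensor, by -0.90 ± 0.23 (adjusted p = 0.00404). The *MLXIPL* level was low, with means of 0.107 and 0.0361 CPM per kilobase in Puro and ABCC1(WT) cells of the first experiment, 0.905 and 0.398 in the second and 2.27 and 1.70 in the third. The olfactory receptor level of the repeats (0.583 and 0.304, then 1.59 and 1.26) was close to it and fell with it, and its part in this result was not tested. The repressors that pair with MAX thus moved both ways, with *MXI1*, *MNT* and *MGA* higher and *MXD1* and *MXD3* lower. *MXD1* was lower by -0.999 ± 0.07 in the first experiment and by -1.07 ± 0.17 in the third, both called, and *MXD3* was called in the first and second.

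Of 7 co-repressor genes that MXD proteins and MNT recruit, 3 (42.9%) were called in the common effect, all higher, beside 9.69% of all genes and 19.7% of protein-coding genes: *SIN3A*, the scaffold, by 0.50 ± 0.09, *SIN3B* by 0.38 ± 0.09 and *NCOR1* by 0.30 ± 0.10. The median of the 7 was 0.23 on the log2 scale, beside -0.14 for all genes. It was 0.061 with at least 10 counts in every library, where 2 genes were called, as with DESeq2 and RLE size factors. Of 10 other genes of the MGA complex, *PCGF6* (0.41 ± 0.11) and *RYBP* (0.28 ± 0.10) were called higher and none lower, with a median of 0.17. That is 2 of 10, near the 19.7% of protein-coding genes called higher, the count ran from 0 to 3 over the alternatives, the median was -0.0051 with at least 10 counts in every library, and *RYBP* was called lower in the first experiment (-0.13 ± 0.04, adjusted p = 0.0303). Of 12 MYC cofactors 5 (41.7%) were called higher, led by the elongation kinase gene *CDK9* (0.63 ± 0.10) and the acetyltransferase gene *KAT2A* (0.52 ± 0.09), the smallest being *HCFC1* (0.33 ± 0.11) and *ZBTB17* (0.35 ± 0.09), with a median of 0.19. This became 4 higher with a median of 0.10 in DESeq2 and 0.11 under RLE size factors, and 3 higher and 1 lower with a median of 0.017 under the filter of at least 10 counts per library. Of 10 genes that set the stability of MYC proteins *TRIM32*, a ubiquitin ligase gene, was called higher (0.40 ± 0.10) and 0 were called lower, which became 1 higher and 2 lower with DESeq2 or RLE size factors and 0 higher and 3 lower with at least 10 counts in every library. The *TRIM32* effect differed between experiments (adjusted p = 0.0398). *TRIM32* was called lower in the first (-0.19 ± 0.05, adjusted p = 0.013) and higher in the second (0.69 ± 0.17, adjusted p = 0.0421) and the third (0.58 ± 0.16, adjusted p = 0.0309). With *TRIM32*, 7 of these 10 were called lower in the first experiment, 70.0% beside 19.7% of all genes, a count that became 1 with the background covariate and 0 with the shared spread. Also among the 7 was *AURKA*, named after its value was seen, whose kinase shields MYCN protein from decay (-0.43 ± 0.05, adjusted p = 4.76e-05). *ARRDC4*, a target of MLX pairs, had 0.32 ± 0.11 (adjusted p = 0.0553).

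Of 61 genes that MYC proteins activate, 33 (54.1%) were called higher in the common effect and 0 lower (edgeR, 2 lower at an unadjusted p under 0.05, 2 by DESeq2 or RLE size factors and 6 with at least 10 counts in every library). The background is 9.69% of all genes and 19.7% of protein-coding genes called higher. This list, like the members and the other lists, was chosen with earlier results of these data known. Its share beside the background is thus no independent comparison. The median log2 fold change of the list was 0.32, against -0.14 for all genes and 0.04 for protein-coding genes. With at least 10 counts in every library it was 0.13, against -0.03 for all genes. The largest were *PPAN* (0.79 ± 0.12), a ribosome assembly gene, and *PPRC1* (0.76 ± 0.10), a coactivator gene of mitochondrial biogenesis, and the smallest called were *SLC29A2* (0.26 ± 0.09) and *TBRG4* (0.28 ± 0.09). By experiment, 24 (39.3%) were called higher and 6 (9.84%) lower in the first, beside 17.9% and 19.7% of all genes. The second had 7 (11.5%) higher and 0 lower, beside 1.25% and 0.458%. The third had 12 (19.7%) higher and 0 lower, beside 2.03% and 0.767%. The counts of the list were unstable. The first-experiment count higher became 4 with the background covariate, 3 with the shared spread, 15 without Puro replicate 3, 16 without Puro replicate 2 and 37 without ABCC1(WT) replicate 3. That of the second became 26 with DESeq2, 0 with the background covariate, 0 without Puro replicate 3 or ABCC1(WT) replicate 2, 1 without ABCC1(WT) replicate 1 and 4 without Puro replicate 2. That of the third became 2, with 2 lower, under the background covariate. It ran from 5 without ABCC1(WT) replicate 2 to 31 without Puro replicate 2, with 7 and 6 without Puro replicates 1 and 3, and 20 and 6 without ABCC1(WT) replicates 1 and 3. Among those lower in the first were a pair named after their values were seen. *HK2*, a hexokinase gene, had -0.50 ± 0.04 (adjusted p = 3.33e-06), and *MCM5*, a replication helicase gene, -0.18 ± 0.04 (adjusted p = 0.00294). The calls over these lists were made on the same libraries as the *MYCN* values and say nothing of which gene acts on which.

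Of 12 genes that MYCN is known to repress, 7 (58.3%) were called lower and 2 (16.7%) higher in the common effect. Of all genes 4.4% were called lower and 9.69% higher, and of protein-coding genes 6.76% and 19.7%. This list too was chosen with earlier results of these data known. By experiment 6 of the 12 were called lower and 3 higher in the first, beside 19.7% and 17.9% of all genes. In the second 0 were called lower and 1 higher, beside 0.458% and 1.25% of all genes. In the third 3 were called lower and 2 higher, beside 0.767% and 2.03%. These counts moved as well. The first had 4 lower and 1 higher with the background covariate or the shared spread, and 2 higher without Puro replicate 2 or 3 or ABCC1(WT) replicate 1 or 2. The second had 3 lower and 2 higher with the shared spread, 0 higher without Puro replicate 1 or 3 or ABCC1(WT) replicate 1 or 2, and 1 lower without ABCC1(WT) replicate 3. The third had 2 lower and 0 higher without Puro replicate 1 or 3 or ABCC1(WT) replicate 3 and with the background covariate, and 2 lower and 1 higher without ABCC1(WT) replicate 2. The lowest were *INHBA*, an activin subunit gene (-1.30 ± 0.19, adjusted p = 4.58e-06), and *CDKN1A*, the cell cycle inhibitor gene (-0.75 ± 0.11, adjusted p = 7.54e-06). The *INHBA* level was near or below the olfactory receptor level in the repeats, with means of 0.642 and 0.295 CPM per kilobase in Puro and ABCC1(WT) cells of the second experiment and 1.65 and 0.864 in the third. It lay well above that level in the first (0.425 and 0.0981). *CDKN2B*, *TGM2* and *NGFR*, also called lower and named here after their values were seen, had means of 0.447 to 3.24 in the repeats, near the olfactory receptor level, which itself fell with ABCC1. Its part in these results was not tested. *SDC4*, a syndecan gene (0.54 ± 0.09), and *GADD45A*, a stress response gene (0.52 ± 0.11), were higher. *NDRG1*, a differentiation gene named after its values were seen, was called higher in the first experiment (0.77 ± 0.08, adjusted p = 5.3e-05), with a difference between experiments (adjusted p = 0.0393). The median of the list was -0.33.

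**Figure D5:**
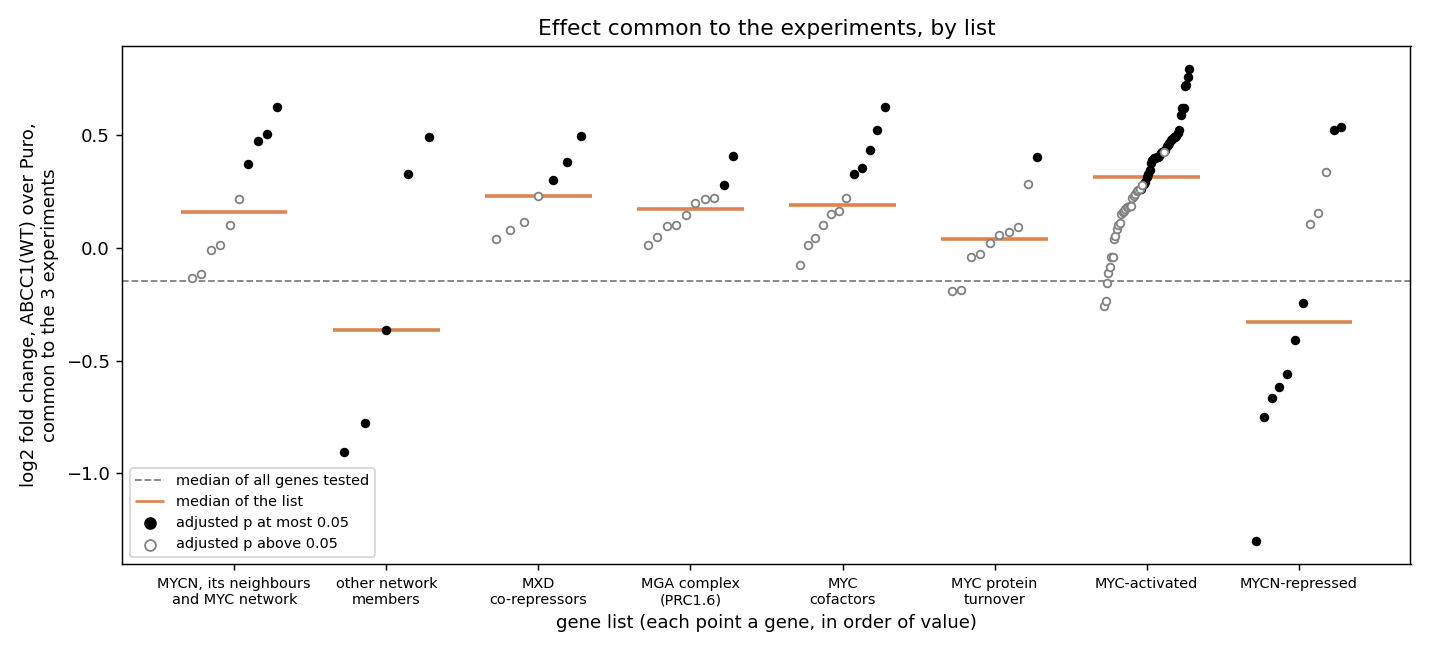
Log2 fold change common to the 3 experiments of ABCC1-overexpressing over empty vector cells for the genes of each list; each point is a gene, filled where the adjusted p (edgeR) is at most 0.05, the orange bar is the median of the list and the dashed line the median of all genes tested (-0.14). The 61 MYC-activated genes have a median of 0.32 and the 12 MYCN-repressed genes one of -0.33.

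The 5 genes whose pattern over the 18 libraries was most like that of *MYCN*, by Pearson's r of log2 CPM centred within each experiment, were *MGAT4B* (0.958), *B4GALT2* (0.957), *ZNF581* (0.951), *FZD7* (0.951) and *ENTREP3* (0.95), out of 16689 genes tested in all experiments. *MGAT4B* and *B4GALT2* encode glycosyltransferases and *FZD7* a WNT receptor. Among the members the r with *MYCN* was 0.848 for *MNT*, 0.824 for *MXI1*, 0.757 for *MAX*, 0.679 for *MGA* and 0.459 for *MXD4*, and it was 0.167 for *DDX1*, 0.0807 for *NBAS*, -0.187 for *MYC* and -0.41 for *MYCL*. The libraries share depth and background in all these values.

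The cell line label was checked against markers. Of 9 sympathetic neuroblastoma markers, 9 were over 2 times the olfactory receptor level in both groups of the first experiment and 8 in each group of the others. In the Puro cells of the first experiment *PHOX2A*, a transcription factor gene of sympathetic neurons, had a mean of 243 CPM per kilobase and *DBH*, the noradrenaline synthesis gene, 139. The summed marker level was 9472 to 10394 CPM in Puro and 6793 to 7462 in the ABCC1(WT) libraries of the first experiment, so it was lower with ABCC1. Of the 6 members called there, 3 were higher and 3 lower. The part of the marker level in those results was not tested. The summed level overlapped in the second (3349 to 4530 against 3632 to 4286) and the third (3981 to 6538 against 3821.5 to 4725). Of the 9 markers 6 (66.7%) were called lower in the first experiment, beside 19.7% of all genes, and 1 (11.1%) higher, beside 17.9%. The 6 lower became 4 with the background covariate and 2 with the shared spread. In the third experiment 2 (22.2%) were called lower and 1 (11.1%) higher, beside 0.767% and 2.03% of all genes. This became 5 lower and 0 higher with the covariate. In the common effect 2 of the 9 (22.2%) were called higher, *TH* (0.60 ± 0.09) and *HAND2* (0.43 ± 0.11), and 2 (22.2%) lower, among them *DBH* (-0.60 ± 0.10). Of all genes 9.69% were called higher and 4.4% lower in that fit, and of protein-coding genes 19.7% and 6.76%, so the markers called higher were near the protein-coding share. The count of markers lower in the common effect became 4 with DESeq2 or RLE size factors and 5 with at least 10 counts in every library. The 6 mesenchymal markers summed to 202 to 222 CPM in the Puro and 184 to 188 in the ABCC1(WT) libraries of the first experiment, to 193 to 269 and 191 to 221 in the second, and to 249.5 to 306 and 228 to 237 in the third, lower without overlap in the first and the third. In the first experiment 2 of the mesenchymal markers (33.3%) were called higher and 2 (33.3%) lower, beside 17.9% and 19.7% of all genes. With the background covariate 1 was called higher and 0 lower. The 5 markers of leukocytes, endothelium and epithelium summed to 0.730 to 1.38 against 0.496 to 0.849, 15.1 to 21.8 against 4.55 to 12.8, and 42.2 to 47.5 against 29.6 to 35.9, lower without overlap in the second and the third, as the olfactory receptor level was. The part of these markers in the results was not tested. The 4 Schwann cell markers summed to 2.71 to 28.5 CPM over all libraries. Of the 15 matched genes only *PTPRC*, a leukocyte gene at background level in the repeats, was called in the common effect by the main test (-0.80 ± 0.22). DESeq2 called 3 mesenchymal and 2 other markers lower, RLE size factors 1 and 2, and the filter of at least 10 counts per library 3 and 1.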

How the data were processed

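RNA of 18 libraries was measured by sequencing. The authors aligned reads with STAR 2.7.3a and counted read pairs per gene with featureCounts (Subread 2.0.0), per the file headers on exons of the GRCh37 Ensembl 74 annotation plus vector sequences, without strand and without reads that overlap several genes, and deposited raw counts. The ERCC rows were left out of the fits and vector rows out of the adjustment. Counts were tested with edgeR 4.0.16 (quasi-likelihood, robust, TMM, filterByExpr with a minimum count of 10), lines within each experiment, then with experiment as a term and as an interaction, with Benjamini-Hochberg adjustment over all Ensembl genes tested and calls at 0.05. DESeq2 1.42.0 was an alternative. Levels are CPM with TMM sizes, divided by exon length. Fits were tested on simulated data. Replicates within an experiment are platings of the same lines, so p-values there measure the spread between platings. The effect common to the experiments also spans cells transfected anew in 1 of the repeats. Its fit still treats all 18 platings as independent, so its p-values do not measure the spread between transfections.

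All 10 genes are named. Of each list, which held genes from general knowledge, the 2 largest and 2 lowest called genes of the common effect are named, and of genes within 2 Mb of *MYCN* those of at least 1 CPM with a symbol, the others by range. The limit of 20 times the olfactory level and the 10.1 to 454.8 kb stretch were set after seeing the data. The members and lists were chosen with earlier results of these data known. *TXNIP* and *PECAM1*, on 2 lists, matched no symbol. Of the source labels, 1 text names another kit for the first experiment than the methods do, and which of the second and the third used cryopreserved cells is not in the labels used here. Values of some marker genes are not reported here.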

Additional observations from a re-analysis of the deposited data

How the results depend on the processing

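The 4 genes called in the common effect were called under every alternative tried for it (DESeq2, RLE size factors, at least 10 counts in every library, a replicate block and leaving out each library), but smaller with at least 10 counts in every library, where the log2 fold change was 0.30 for *MYCN*, 0.20 for *MXI1*, 0.45 for *MNT* and 0.32 for *MGA*. The counts of members called in single experiments moved more. In the first, 6 became 0 with background reads as a covariate and 1 with the spread shared across all 18 libraries. In the second, 0 became 5 with DESeq2, 2 with no filter on low counts and 3 with the shared spread, and 0 to 1 when a library was left out (*MXI1* without Puro replicate 2, *MGA* without ABCC1(WT) replicate 3). In the third, 1 became 2 with DESeq2, upper-quartile scaling, at least 10 counts in every library, the replicate block, protein-coding genes only and the shared spread, 0 with the background covariate, and 0 to 2 when a library was left out (*MGA* joined without Puro replicate 2 or ABCC1(WT) replicate 1). Over the leave-outs, members called ran from 5 to 7 in the first experiment, from 4 to 5 for the common effect (6 with at least 10 counts in every library, where *NBAS* and *MYCL* were called lower) and stayed at 0 for the difference between experiments. The cause of these moves was not tested.

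Directions turned only for values that did not pass. With the background covariate the log2 fold change was -0.061 for *MXD4* in the first experiment, -0.035 for *NBAS* and -0.017 for *MYCL* in the second, and -0.20 for *MAX* and -0.24 for *MXI1* in the third. In the second experiment upper-quartile scaling gave -0.0075 for *NBAS* and -0.056 for *MYC*, which had -0.019 with at least 10 counts in every library and -0.046 on protein-coding genes only. *MXD4* had 0.0054 with DESeq2 in the third. In the common effect *DDX1* had -0.068 with DESeq2, -0.067 with RLE size factors and -0.15 with at least 10 counts in every library, where *MXD4* had -0.068. Leaving out single libraries gave -0.0054 to 0.036 for *MAX* and -0.099 to 0.093 for *MXD4* in the first experiment, -0.25 to 0.43 for *MYC* in the second, -0.15 to 0.031 for *NBAS*, -0.36 to 0.041 for *MYC*, -0.32 to 0.038 for *MYCL* and -0.20 to 0.058 for *MXD4* in the third, and -0.046 to 0.077 for *DDX1* and -0.056 to 0.036 for *NBAS* in the common effect.

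Same-numbered libraries did not clearly deviate together: their correlations ran from -0.138 to 0.0974. By the methods of the study cells were plated weekly, and these correlations cannot settle whether such libraries share a week. The replicate block called 5 members in the first experiment, 0 in the second, 2 in the third and 4 in the common effect. Over all genes, calls in the common effect were 4036 higher and 1833 lower, against 2901 and 2922 with RLE size factors and 3397 and 3919 with DESeq2. Over the alternatives the MYC-activated list had 27 to 41 genes higher and 0 to 6 lower in the common effect, and 3 to 37, 0 to 26 and 2 to 31 higher in the 3 experiments. At 17 to 65 counts per library *MYC* allows no fine statement in the second and the third experiments.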
